A study of Mus musculus with 2 samples.

Results

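The cytosolic ribosome of mouse cells carries many proteins of the large (Rpl) and small (Rps) subunit, and the genes that encode them were followed here in mIMCD3 cells, an epithelial line from the inner medullary collecting duct of the mouse kidney. Members were all genes whose symbol on the array was that of a cytosolic ribosomal protein or of a paralogue of one. This gave 84 genes of 34650 on the array, with 192 of 55681 probes, and 50 of them belonged to the large and 34 to the small subunit. Cells grown with the bone hormone FGF23 (fibroblast growth factor 23, 10 ng/mL for 4 h) were set against cells grown without it. Both RNAs were hybridised together on each of 2 Agilent two-colour arrays. FGF23 RNA carried the dye Cy3 on array 1 and Cy5 on array 2, and unstimulated RNA carried the other dye. No genotype or transgene differed between the groups, and both came from a single immortalised line. The labels do not say whether the arrays came from separate cultures, so p-values measure only the spread between these 2 arrays, which may be technical.

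Ribosomal proteins are made in near-equal amounts for assembly in the nucleolus, and their mRNAs are among the most abundant of a growing cell. In mammals their output is set largely by translation: the mRNAs begin with a C followed by a run of pyrimidines (the 5′-terminal oligopyrimidine tract), through which mTOR signalling and the repressor Larp1 control their loading onto ribosomes. Growth factors acting through receptor tyrosine kinases, of which the FGF receptors are a class, can feed into that control. Total RNA, as measured here, does not report loading onto ribosomes.

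The sequences by which these genes were read, and those in front of them, follow, because they decide which transcripts a value can stand for. Ribosomal protein genes have many processed copies in the mouse genome, and 11 member probes were placed by the array's annotation (mm9) on another chromosome than RefSeq gives for the gene. These were probes of Rpl13, Rpl36, Rps27, Rps29 and Rps4x, among them all 4 of Rps27, which lay on chromosome 9 while RefSeq places the gene on chromosome 3. A value of such a probe may include RNA from a copy elsewhere. Only chromosomes were compared, so a probe placed on a copy on the gene's own chromosome was not counted. The probes of Rps2, for example, lay apart on chromosome 17, at chr17:42864841-42864900 and chr17:24857583-24857642. The first of them was the brighter and stood for Rps2. Of the 192 member probes, 171 had an accession found in RefSeq, and every one of the 171 had the same symbol there. Where each probe lies relative to exons and UTRs was not analysed here.

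One pair of probes from different member genes aligned over at least 40 bases with at least 85% identity. It joined Rps12, a small-subunit protein (probe at chr10:23505428-23505711, a span longer than the 60 bases of the probe), to the paralogue Rps12l2 (chr8:37089026-37089085). Over 56 aligned bases 53 were identical, and the capitals mark the 3 differences, C6T, G28T and C52T, counted from the 5′ end of the Rps12 probe with its base first.
Rps12 A_55_P1989328: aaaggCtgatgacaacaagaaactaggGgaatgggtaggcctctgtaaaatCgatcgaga
Rps12l2 A_55_P2069961: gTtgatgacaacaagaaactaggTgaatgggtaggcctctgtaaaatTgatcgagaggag
RNA of either gene may bind either probe at so few differences, so values of these genes are uncertain apart from each other. Their values on this pair of probes were alike, with log2 ratios of FGF23 over unstimulated of -0.12 and -0.05 on arrays 1 and 2 for Rps12l2 and of -0.16 and 0.03 for Rps12.

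Within genes, 22 pairs of probes in 18 genes aligned in this way, and 20 of the pairs held at least 1 mismatch. The array thus carried differing versions of a sequence under 1 gene symbol. An example is Rpl7a, a large-subunit protein, whose probes at chr2:26768759-26768818 differ at T24C and G26A within the first 30 bases shown, in capitals.
Rpl7a A_55_P2001347: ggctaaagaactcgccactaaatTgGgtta
Rpl7a A_55_P2037922: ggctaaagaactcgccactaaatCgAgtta
Both versions gave nearly the same mean log2 ratio, 0.05 and 0.04 over the arrays.

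The closest paralogues were read by probes without such an alignment, and the first 30 bases of each are shown for the pairs described below. Rpl7l1 lies at chr17:46912582-46912641, Rpl7 at chr1:16091382-16091438, Rpl22l1 at chr3:28706237-28706296 and Rps27l at chr9:66795486-66797176. Rpl22 was read at chr4:151706515-151706574 and again at chr4:151708012-151708071.
Rpl7l1 A_52_P343343: aattatcaagtatcttcagagaagattatt
Rpl7 A_55_P2081168: gtcacccattgtatttttgtaatctggtca
Rpl22l1 A_55_P2159026: cagagtctgaggactaattggcctctgctt
Rpl22 A_55_P2015989: ggaggaagacgaggattaggacacattggt
Rpl22 A_52_P391718: gctgtaaacaacattaaccctgggttgatt
Rps27l A_51_P246903: aaagccaggctcacagaaggctgttcattt
Rps27 A_55_P2158112: gcccctgattgaagatgagtgggaaccttc

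RefSeq promoters of GRCm38.p6, each of 300 bases from 250 before the start, were at hand for 62 member genes in 74 entries. A start at C followed by at least 4 pyrimidines was found in 17.6% of the 74 member entries and in 2.51% of all 32851 promoters. The motif CCGGAAG, a form bound by ETS factors, lay on either strand of 35.1% of member promoters and 8.86% of all promoters, and CTCTTTC on either strand of 28.4% and 8.16%. CTCTTTC can lie within the pyrimidine tract itself, and it can share at most 1 base with CCGGAAG. A match is a description of letters in the window and not a site of binding. Shown, for the length of their pyrimidine runs (5 to 9 bases), are 60 bases from 40 before the start of Rps6 (the substrate of the S6 kinases; chr4:86857348-86857407, minus strand), Rpl28 (chr7:4792925-4792984, plus), Rpl38 (chr11:114668540-114668599, plus) and Rplp2 (chr7:141447611-141447670, plus), with the run from the annotated start in capitals.
Rps6: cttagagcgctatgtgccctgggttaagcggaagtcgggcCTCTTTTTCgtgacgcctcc
Rpl28: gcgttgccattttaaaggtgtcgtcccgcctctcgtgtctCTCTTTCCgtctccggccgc
Rpl38: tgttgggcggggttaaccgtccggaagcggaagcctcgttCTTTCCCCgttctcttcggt
Rplp2: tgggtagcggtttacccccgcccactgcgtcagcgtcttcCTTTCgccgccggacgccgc
These 4 genes were chosen for the tract, which 13 of the 74 member entries hold at the annotated start. Their log2 ratios of FGF23 over unstimulated were -0.11 and 0.10 on arrays 1 and 2 for Rps6, -0.03 and 0.03 for Rpl28, -0.25 and 0.23 for Rpl38 and 0.04 and 0.02 for Rplp2. The signs differed between arrays for Rps6, Rpl28 and Rpl38. The means were -0.0057, -0.0021, -0.0090 and 0.03 in that order of genes, and the widest 95% interval, that of Rpl38, was -0.24 to 0.22.

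Of the 84 genes, 80 had a probe whose FGF23 signal, or whose unstimulated signal, was well above background on arrays 1 and 2, namely 47 of the large and 33 of the small subunit. The other 4 were the paralogues Rpl3l, Rpl10l, Rpl39l and Rps4l. The brightest kept probe stood for its gene, and 19170 genes of the whole array were kept in this way. As for the cells, 14 of 16 fixed markers of collecting duct and ureteric epithelium were measured, Aqp2, Scnn1a and Gata3 among them, while Aqp3 and Avpr2 were not. Of 11 markers of other cells, 5 were measured (Col1a1, Csf1r, Lrp2, Pecam1 and Umod), and Slc34a1 of the proximal tubule, Ptprc of leukocytes and Cdh5 of endothelium were not. No spot was saturated on either array, and the highest member signals were 318889.9 and 313832.4 in Cy5 and 106438.5 and 112458.9 in Cy3.

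With FGF23, the ribosomal protein mRNAs were close to their unstimulated values. The median log2 ratio of FGF23 over unstimulated was -0.0012 over the 80 members and -0.00072 over all 19170 genes. The members' mean log2 ratios ran from -0.23 to 0.08, with an SD across genes of 0.047, against 0.092 across all genes and 0.060 across the 1292 other genes of a brightness of 14 or more. Brightness is the mean log2 intensity of both dyes. Of the 80 members 79 (98.8%) lay within 0.1 of 0, and so did 76.8% of all genes and 92.2% of those other bright genes. No member passed the test (limma with Benjamini-Hochberg adjustment over all genes, threshold 0.05), which called 0.0522% of all genes, or 10. At an unadjusted p under 0.05 there was 1 member, Rpl7l1, against 3.93% of all genes. Every member's adjusted p in limma was 0.999948.

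A p above the threshold does not show equality. The intervals say how large a difference the spread between these 2 arrays could hide, and that spread may be technical. The fit drew each gene's spread towards that of all genes, whose median SD between arrays was 0.087, against 0.125 over the members. The 95% confidence interval of a member reached 0.193 on either side of its mean log2 ratio at the median and 0.186 to 0.279 over the members. Leaving out Rpl7l1, the lowest bound was -0.32 (Rps12l2) and the highest 0.31 (Rps21), that is 0.802-fold and 1.24-fold. The loess step centres the ratios at each brightness near 0, so a shift common to all bright genes would be taken out with it. There were 41 members beside 243 other genes at a brightness of 16 to 17, and 11 beside 44 at 17 to 18. With the member spots given no weight in the loess, an alternative chosen after seeing the data, the members' median log2 ratio was -0.0018 and again no member passed.

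**Figure D1:**
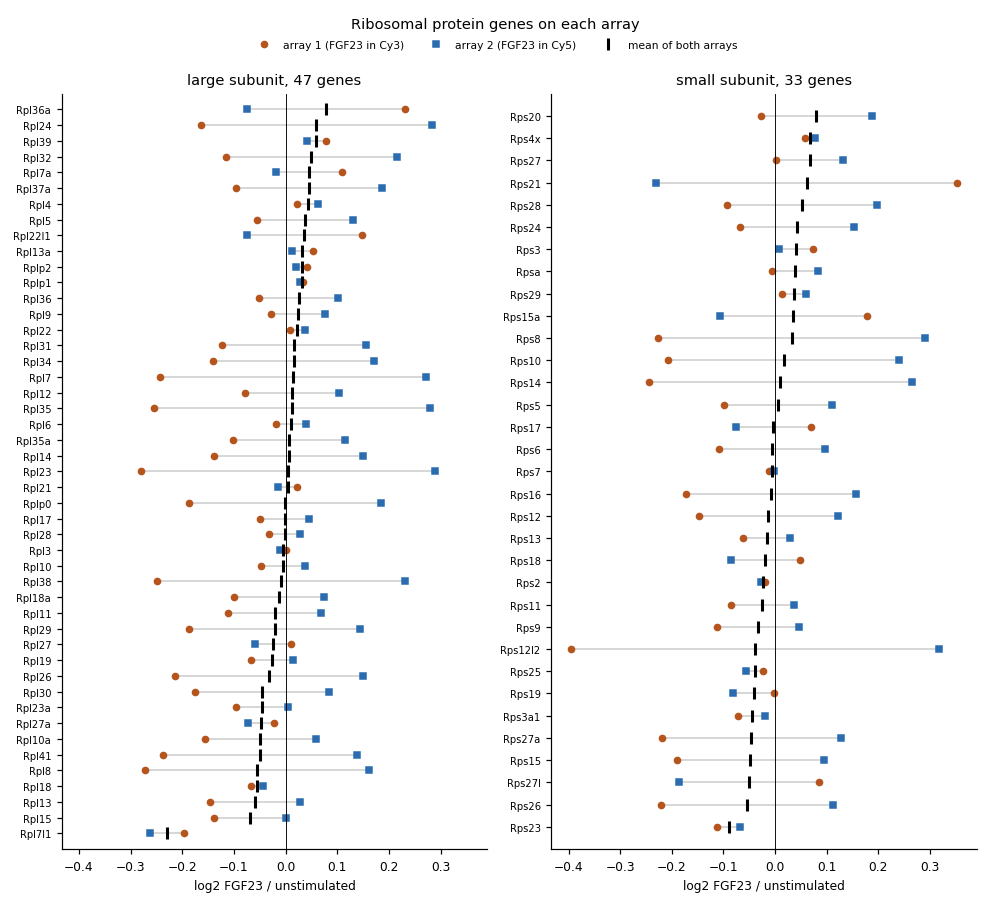
Log2 ratio of FGF23 over unstimulated for each kept ribosomal protein gene, large subunit at left and small at right, sorted by the mean. Circles are array 1, squares array 2 and black bars the mean of both (n = 2 arrays). All means but that of Rpl7l1 lie within 0.1 of 0, while single arrays reach -0.40 (Rps12l2) and 0.35 (Rps21).

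Among the large-subunit genes, the median log2 ratio was 0.0054, and among the small-subunit genes it was -0.0067. The difference of 0.012 turned to -0.028 on array 1 alone and to -0.015 on array 2 alone. The subunits thus gave no stable order. Rplp1, Rplp2 and Rplp0 encode the stalk, which recruits the GTPases of translation. On its brightest probe, Rplp1 had normalized intensities of 127123 and 130626 with FGF23, against 124115 and 128197 unstimulated, on arrays 1 and 2. Its partner Rplp2 had 115429 and 115094 with FGF23, against 112112 and 113498 unstimulated. On these probes FGF23 was the slightly brighter RNA on both arrays, with a mean log2 ratio of 0.03 for either gene (SD 0.0053 and 0.016, n = 2 arrays). The other kept probe of Rplp1, A_55_P2155826, gave the opposite sign on both arrays, -0.03 and -0.03. Averaged over its probes Rplp1 had 0.00078, and with median centring in place of loess Rplp1 had -0.0040 and Rplp2 -0.0038, so neither had a settled direction. Rplp0, which anchors them to the ribosome, had 167312 and 197494 with FGF23, against 190411 and 173741 unstimulated. Its ratio was -0.19 on array 1 and 0.18 on array 2, and the mean was -0.00086.

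Rpl5 and Rpl11, which join 5S ribosomal RNA and can bind the p53 regulator Mdm2, did not stand apart. Rpl5 had log2 ratios of -0.05 and 0.13 on arrays 1 and 2 (mean 0.04, 95% interval -0.16 to 0.23). Rpl11 had -0.11 and 0.07 (mean -0.02, interval -0.21 to 0.17). The signs of both genes differed between arrays. Among the higher large-subunit genes were Rpl36a, with 0.23 and -0.08 (mean 0.08), and Rpl24, a protein at the face between the subunits, with -0.16 and 0.28 (mean 0.06). The other kept probe of Rpl24, A_55_P2004333, gave 0.03 and -0.06 (mean -0.02), and averaged over its probes Rpl24 had 0.02. On its brightest probe Rpl39, a small protein of the peptide exit tunnel, was above 0 on both arrays at 0.08 and 0.04. The mean was 0.06 ± 0.026 (SD), and 0.03 with median centring. Its normalized intensities were 44346 and 46370 with FGF23, against 42023 and 45082 unstimulated, on arrays 1 and 2. The 95% interval of its mean log2 ratio, -0.13 to 0.25, held 0. The other kept probes of Rpl39 changed sign between arrays. A_55_P1957291 gave 0.25 and -0.03, and A_66_P126080 gave 0.30 and -0.18. The capitals in the brightest probe of Rpl39 (chrX:34622696-34623990) mark its last 3 bases, TAA, the letters of a stop codon. Whether they are the stop codon of Rpl39 was not analysed here.
Rpl39 A_55_P2182106: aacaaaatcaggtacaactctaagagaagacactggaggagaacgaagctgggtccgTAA
At the low end, after Rpl7l1, came Rpl15 with -0.14 and 0.0016 (mean -0.07), Rpl13 with -0.15 and 0.03 (mean -0.06) and Rpl18 with -0.07 and -0.04 (mean -0.06 ± 0.017 SD). On the probes that stood for these 3 genes, only Rpl18 was lower on both arrays, and its unadjusted p in limma was 0.53. The other kept probe of Rpl15, A_66_P140976, was lower on both at -0.09 and -0.03.

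Of the small subunit, Rps20 had the highest mean log2 ratio of all members. Its normalized intensities were 119111 and 130084 with FGF23, against 121424 and 114237 unstimulated, and the ratios were -0.03 and 0.19 (mean 0.08 ± 0.15 SD, 95% interval -0.12 to 0.28). The ratio came from array 2, where FGF23 RNA carried Cy5. Rps4x, the X-linked form of S4, had on its brightest probe 36864 and 36531 with FGF23, against 35428 and 34605 unstimulated. On this probe FGF23 was the brighter RNA on both arrays, with a mean log2 ratio of 0.07 ± 0.015 (SD) and an interval of -0.12 to 0.25. Its other kept probe, A_55_P1960764, gave 0.13 and -0.15 (mean -0.0062), and the mean of both probes was 0.03. The array's annotation placed that other probe on chromosome 3 and not on X, so its value may include RNA from a copy elsewhere. Rps27 had ratios of 0.0026 and 0.13 (mean 0.07).

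The lowest gene of the small subunit was Rps23, a protein at the decoding centre. It had 72835 and 77665 with FGF23, against 78708 and 81363 unstimulated. FGF23 was the dimmer RNA on both arrays, with ratios of -0.11 and -0.07 (mean -0.09 ± 0.032 SD) and an unadjusted p in limma of 0.32. Rps26, which lies at the mRNA exit channel, had -0.22 and 0.11 (mean -0.05). Rps6 had 60587 and 68803 with FGF23, against 65339 and 64305 unstimulated, ratios of opposite sign at -0.11 and 0.10. Rpsa, also known as the laminin receptor, had -0.0064 and 0.08 (mean 0.04).

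The arrays disagreed in sign for most members. A log2 ratio above 0 on both arrays was found for 10 members (12.5%; 23.9% of all genes), and one below 0 on both for 9 (11.3%; 22.3% of all genes). The other 61 members (76.25%; 53.8% of all genes) had opposite signs. Among the 1292 other genes of a brightness of 14 or more, the shares were 13.2% above 0 on both arrays, 15.6% below 0 on both and 71.3% with opposite signs, close to those of the members. Of the members, 50 were lower with FGF23 on array 1 and higher on array 2, a pattern of 62.5% of members, 31.4% of all genes and 40.4% of the other bright genes. On array 1 the members' median was -0.07, and 59 of 80 lay below 0, whereas on array 2 it was 0.07, and 60 of 80 lay above 0. Over the 80 genes the ratios on both arrays had a Pearson r of -0.71, which describes genes that share 2 hybridisations and is not a test. Read from a single array, the family would have seemed lower with FGF23 on array 1 and higher on array 2.

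**Figure D2:**
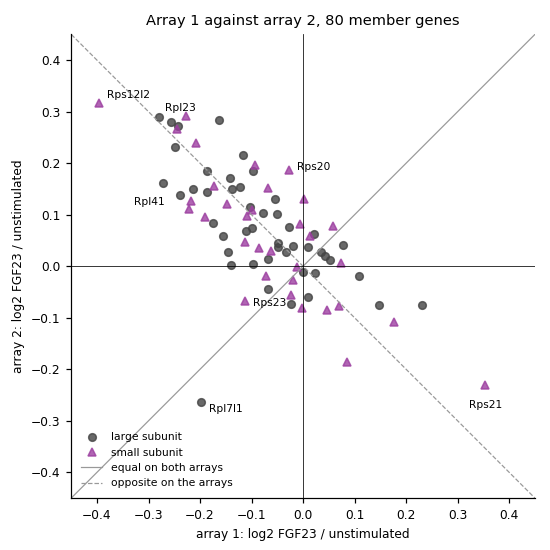
Log2 ratio of FGF23 over unstimulated on array 1 (x axis) and array 2 (y axis) for the 80 kept members, circles for the large and triangles for the small subunit. Most points follow the dashed line of opposite values (r = -0.71), and Rpl7l1 lies apart from the other points, near the solid line of equal values, at -0.20 and -0.26.

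The largest differences between arrays were those of Rps12l2, Rps21, Rpl23 and Rpl35. Rps12l2 had 131755 and 171876 with FGF23, against 173350 and 137936 unstimulated, so whichever RNA carried Cy5 was the brighter one (ratios -0.40 and 0.32, mean -0.04). Rpl23 ran the same way (-0.28 and 0.29, mean 0.0054), and so did Rpl35 (-0.26 and 0.28, mean 0.01). Rps21, whose probe was the dimmest after that of Rpl7l1, ran in the opposite way. It had 25888 and 21623 with FGF23, against 20268 and 25381 unstimulated, so the RNA in Cy3 was the brighter one (ratios 0.35 and -0.23, mean 0.06). None of the 4 could be told from 0 in the mean, as each 95% interval held 0.

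The direction of this swing, and above a brightness of 15 its size, moved with brightness. Members had a median brightness of 16.5, against 9.22 over all genes. In the range from 14 to 15, the 4 members had medians of 0.16 on array 1 and -0.13 on array 2. From 15 to 16, the 23 members had -0.01 and 0.01. In the range from 16 to 17, the 41 members had -0.10 and 0.10, and in the range from 17 to 18 the 11 members had -0.24 and 0.19. Other genes of equal brightness showed a swing as well, at -0.07 and 0.08 for 243 genes from 16 to 17 and -0.20 and 0.21 for 44 genes from 17 to 18. From 14 to 15, the 580 other genes had 0.02 and -0.04, and from 15 to 16 the 425 other genes had -0.01 and 0.01. Once the arrays were averaged, the members' medians in these ranges, from dim to bright, were 0.0099, -0.0035, 0.0054 and 0.0054. The 3 genes with the brightest probes followed the pattern of their range: Rpl41, which encodes the smallest ribosomal protein, had -0.24 and 0.14, Rplp0 had -0.19 and 0.18, and Rps14 had -0.25 and 0.27.

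**Figure D3:**
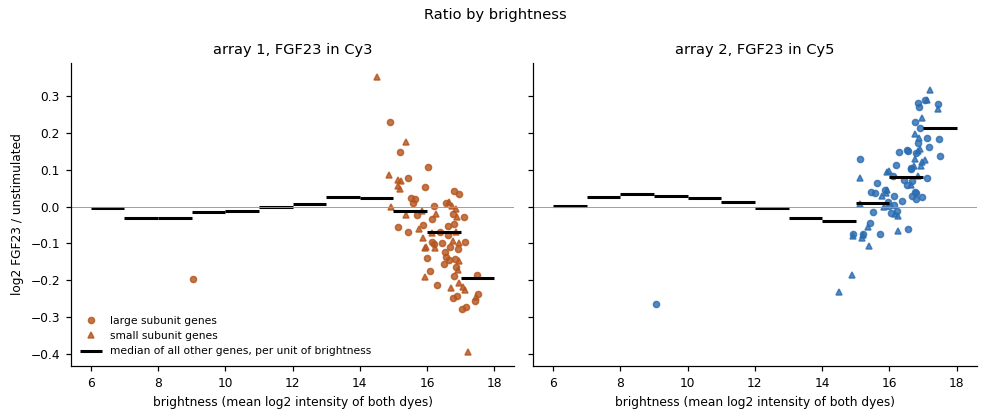
Log2 ratio of FGF23 over unstimulated against brightness (mean log2 intensity of both dyes) for the 80 kept members on array 1 (left, FGF23 in Cy3) and array 2 (right, FGF23 in Cy5). Black bars are medians of all other genes per unit of brightness. Members and other genes bend down on array 1 and up on array 2 above a brightness of 16.

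The dye contrast, the log2 ratio of Cy5 over Cy3 averaged over both arrays, leaves the treatment out. Its median was 0.07 over members and 0.011 over all genes, and it ran from -0.29 (Rps21) to 0.36 (Rps12l2). No member passed the limma test of this contrast, against 0.678% of all genes (130), and 17 of the 80 members had an unadjusted p under 0.05, against 6.77% of all genes. Among the 1292 other genes of a brightness of 14 or more, 48 passed that limma test and 167 had an unadjusted p under 0.05. Before the loess, the members' median log2 ratio of Cy5 over Cy3 was 1.36 and 1.35 on arrays 1 and 2, above the 0.945 and 0.995 of all genes. Across the members, the contrast had a Pearson r of 0.59 with brightness, and across all genes of 0.0094, where the points share both hybridisations and the loess curve. With the number of G bases in the probe r was 0.27, and with that of A bases -0.27.

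The lowest member was Rpl7l1, a paralogue of the large-subunit protein Rpl7. It had 483 and 492 units of normalized intensity with FGF23, against 554 and 591 unstimulated. FGF23 was the dimmer RNA on both arrays, with ratios of -0.20 and -0.26. The mean log2 ratio was -0.23 ± 0.046 (SD, n = 2 arrays), or 0.852-fold, with a 95% interval of -0.42 to -0.04. Its unadjusted p in limma was 0.019, and 1.31% of all genes were likewise lower with an unadjusted p under 0.05. It failed the adjustment (limma adjusted p = 0.999948). It was the only kept member with a brightness under 14, at 9.05, and the other 2273 genes between 9 and 10 had a median mean log2 ratio of 0.0027. Rpl7 itself, its main gene, had 110950 and 132245 with FGF23, against 131338 and 109511 unstimulated. Its mean of 0.01 came from ratios of opposite sign, -0.24 and 0.27. Rpl7l1 less Rpl7 was 0.05 on array 1 and -0.54 on array 2, so the difference between these paralogues was not alike on the arrays.

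The other paralogues did not part from their main genes in a steady direction. Rpl22l1, whose protein can stand in for Rpl22 in mice that lack it, had ratios of 0.15 and -0.08 (mean 0.04), and Rpl22 had 0.0092 and 0.04 (mean 0.02). Rps27l, a p53 target, had 0.09 and -0.19 (mean -0.05), against a mean of 0.07 for Rps27, and the difference was 0.08 on array 1 and -0.32 on array 2. Rpl36al, which is no member but a close relative of Rpl36a, had 0.08 and 0.02 (mean 0.05), beside the mean of 0.08 for Rpl36a. The paralogues Rpl3l (known from muscle), Rpl10l and Rpl39l (known from testis) and Rps4l were not well above background in either RNA on either array. Rpl39l, for example, had raw signals of 36.3 and 44.7 with FGF23, against 35.3 and 41.3 unstimulated, beside local backgrounds of 41 and 34.5 in the FGF23 channel and 33 and 41 in the unstimulated channel. Their main genes were measured and gave mean log2 ratios of -0.0052 (Rpl3), -0.0056 (Rpl10), 0.06 (Rpl39) and 0.07 (Rps4x).

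**Figure D4:**
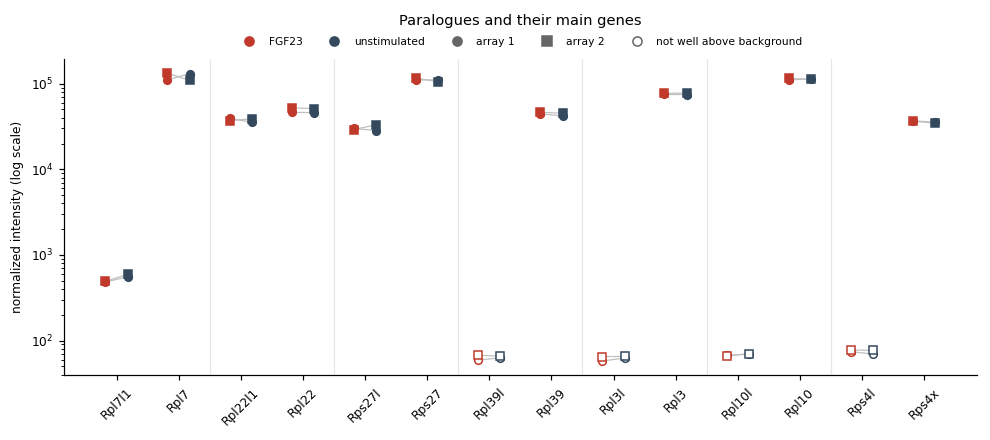
Normalized intensity (log scale) of 7 paralogues, each left of its main gene, with FGF23 (red) left of unstimulated (dark blue). Circles are array 1, squares array 2, and open symbols are probes not well above background. Intensities are to be read within a gene and an array. Probes differ in brightness for reasons other than RNA level, and the arrays were not scaled to each other. Of the kept genes drawn, Rpl7l1 alone has FGF23 under unstimulated by more than 0.1 on the log2 scale on both arrays.

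Where a gene had several probes, their means mostly lay close together. Of the 192 member probes 186 were kept, and in a fit over all 26943 kept probes none of the 186 passed limma's test, against 0.0854% of all. A single member probe, that of Rpl7l1, had an unadjusted p under 0.05, against 4.01% of all kept probes. For 61 genes with more than 1 kept probe, the range between the probes' mean log2 ratios had a median of 0.045 and a maximum of 0.157 (Rpl6), and it was over 0.1 in 8 genes. In Rpl6, Rpl22 and Rpl30 a dim probe lay at the end of the range. Rpl6 had 0.01, -0.03 and -0.02 on its 3 bright probes and 0.12 on A_55_P2043639, of brightness 6.99. Rpl30 had -0.05 and -0.02 on bright probes and -0.14 on A_66_P125437, of brightness 10.8. In Rpl13 the probes at both ends of the range were bright. They were A_55_P2032558, of brightness 15.2, with -0.08 and A_55_P1991151, of brightness 15.6, with 0.03. Those probes were singled out after their values were seen.

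Rpl22, an RNA-binding protein of the large subunit, had probes that differed on both arrays. Its bright probe A_55_P2015989 gave 0.0092 and 0.04. The probe A_52_P391718, placed further along chromosome 4, gave 0.18 and 0.17, a mean of 0.18 with an unadjusted p in limma's probe fit of 0.055. Raw signals at that probe were 1790 in Cy3 and 4049 in Cy5 with FGF23, against 3298 in Cy5 and 1670 in Cy3 unstimulated. It too was chosen after its values were seen. Whether the probes read different transcript ends was not tested.

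Repeated spots showed the precision within an array. The Rpl23 probe A_51_P108190 was spotted 10 times, and its log2 ratio was 0.05 ± 0.036 (SD over 10 spots) on array 1 and -0.04 ± 0.021 on array 2. The gene's bright probe gave -0.28 and 0.29. For 1 gene, the bright and the dim probe thus differed by more than the spread between spots on each array, and their means over the arrays were 0.0054 and 0.0012. Whether both probes read the same transcript was not tested.

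**Figure D5:**
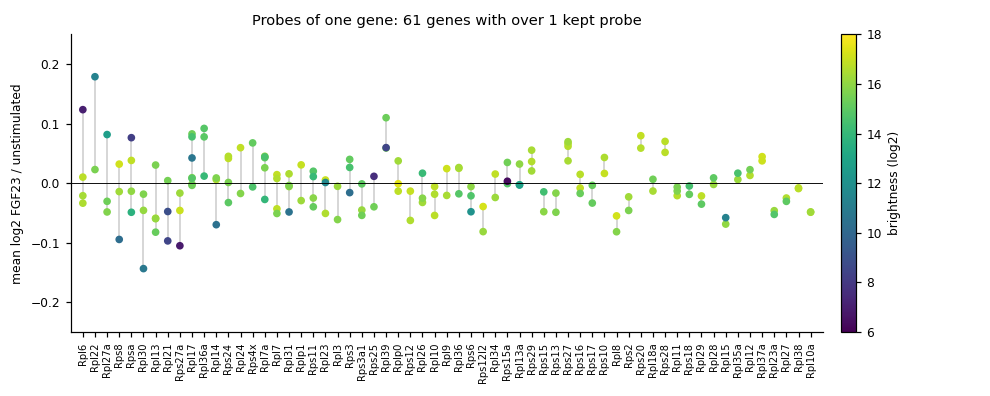
Mean log2 ratio of FGF23 over unstimulated over both arrays (n = 2) for every kept probe of the 61 genes with more than 1, ordered by the range between probes. Colour gives the probe's brightness. Probes over 0.1 from 0 are mostly dark, that is dim, and belong to Rpl6, Rpl22 and Rpl30 among others.

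Other genes of the translation apparatus were read from a list of 36, of which 35 were on the array and kept. The list held elongation and initiation factors, genes with a 5′-terminal oligopyrimidine tract and the kinases that act on them. None of the 35 passed limma's test, and none had an unadjusted p under 0.05. Their median mean log2 ratio was -0.011 (-0.07 on array 1 and -0.01 on array 2), against -0.00072 over all genes. The highest were Eif4ebp1, the inhibitor of cap binding that mTOR phosphorylates, with 0.10 and 0.13 (mean 0.12), Eif3h, a subunit of an initiation factor, with -0.07 and 0.17 (mean 0.05), and Tpt1 with 0.07 and 0.03 (mean 0.05). The lowest were Snhg1, a host of small nucleolar RNAs, with -0.09 and -0.23 (mean -0.16), Rps6kb2, an S6 kinase, with -0.29 and 0.08 (mean -0.10), and Eif4a1, the helicase of cap-bound initiation, with -0.07 and -0.10 (mean -0.08). Eif4ebp1, Tpt1, Snhg1 and Eif4a1 had 1 sign on both arrays, and Eif3h and Rps6kb2 did not.

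The swing between arrays was seen in non-members that sit on or in the ribosome as well. Gnb2l1 (the old symbol of Rack1, a scaffold on the small subunit) had -0.29 and 0.34. Fau, the small-subunit protein fused to a ubiquitin-like domain, had -0.07 and 0.10. Both were of brightness 17 or more, and the mean log2 ratio was 0.02 for each.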

How the data were processed

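Total RNA of both groups was hybridised on 2 dye-swapped arrays. The deposited scanner files gave a mean and a local background intensity per spot and dye, from Feature Extraction version 11.5.1.1, with probe positions on mm9, per the file headers. Per the file headers, they further gave each spot's log10 ratio (Cy5 to Cy3) after background subtraction and dye normalization. In limma 3.58.1 (R 4.3.3), mean signals were corrected by normexp (offset 50), normalized within arrays by loess with control spots at weight 0, and turned to log2 of FGF23 over unstimulated. Outlier spots were dropped and spots of a probe averaged. No normalization was done between the arrays, so intensities with and without FGF23 are to be compared within an array. The fit (lmFit, eBayes; 1 residual and 12.6 prior degrees of freedom) had no dye term, since none could be fitted beside the treatment with a spread left to estimate. It was also run on simulated data, whose outcome does not measure its power on these arrays. Symbols were the array's own. Each array had 62976 spots, with median raw signals of 52.5 and 54.5 in Cy3 and 69.9 and 76.9 in Cy5. The number of arrays limits the precision. Batches of culture or labelling are not known from the labels.

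Members, lists and tests were chosen with earlier results of these data known. Named members were the 6 highest and 6 lowest by mean log2 ratio, the 4 with the largest difference between arrays, the 3 with the brightest and the 3 with the dimmest probes, fixed paralogue pairs, stalk genes, Rpsa, Rps6, Rpl5 and Rpl11, and from the translation list the 3 highest and 3 lowest. Other names were chosen after their values were seen. Alternatives were Agilent's log ratio, offset 0, median centring in place of loess, no filter or a stricter one, the mean of probes, a robust prior with an intensity trend, every probe as a feature, members with the same RefSeq symbol, loess without member spots, and single arrays. One gene of the translation list is not reported here by name.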

Additional observations from a re-analysis of the deposited data

How the results depend on the processing

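No member passed limma's test under any of the 10 alternatives tried over both arrays, and 1 had an unadjusted p under 0.05 in each except median centring, where none did. Calls over all features, 10 with the settings of the report, were 0 with Agilent's log ratio and with median centring, 5 with offset 0, 15 with no filter and with the strict filter, 19 with the mean of probes, 79 with a trended robust prior and 23 of probes. Members above 0 on both arrays were 0 with median centring, against 10. Those below 0 on both were 14 with Agilent's log ratio, 15 with the mean of probes and 0 with median centring, against 9. Median centring takes out no brightness-dependent dye difference, and there 80 members passed the test of the dye contrast. The members' median dye contrast of 0.0672 was 0.0083 with Agilent's log ratio, 0.948 with median centring, 0.0605 with no filter, 0.0393 with the mean of probes, 0.0747 with loess without member spots, and 0.0663 to 0.0746 on single arrays. On single arrays, the large less the small subunit was -0.028 to -0.015, against 0.012, and the translation list's median -0.066 to -0.014, against -0.011. Of 198 values of named genes under alternatives, 12 moved by more than the spread between arrays and 12 changed sign; the cause was not tested. Rpl7l1 lay between -0.27 and -0.23 in all alternatives run on it over both arrays. The test was itself paired, since it was run on ratios of both RNAs within each array. Single arrays leave no residual degree of freedom, so they gave values only.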
